A study of Homo sapiens with 9 samples.

Results

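The proteasome genes were followed in MCF10A cells, a non-tumorigenic human breast epithelial line, after a calcium load and after a growth factor. A gene was taken as a member when its symbol began with PSMA, PSMB, PSMC, PSMD, PSME, PSMF or PSMG followed only by a number, and when its mean over the 9 samples was at least 1 TPM (transcripts per 1000000, a length-normalised share of a library). Of the 56609 symbols listed, 48 had such a name, and 46 of the 13968 tested symbols passed the mean. The remaining pair, PSMA8, a subunit of the testis, and PSMB11, a subunit of the thymus, were listed at 0 TPM in every sample. The 46 members comprised 7 PSMA and 7 PSMB genes of the constitutive core, 3 immunoproteasome genes (PSMB8, PSMB9 and PSMB10), 6 PSMC and 14 PSMD genes of the cap, 4 PSME activator genes, PSMF1 and 4 PSMG assembly genes.

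Each group held 3 samples: untreated controls, cells given 10 mM calcium with the calcium ionophore ionomycin for 16 h, here called high calcium, and cells given 10 nM TGFb3 (transforming growth factor beta 3) for 16 h. The ionomycin dose stands in the labels as 1 mM and is given here as labelled. All cells grew in the same serum medium with EGF, hydrocortisone, cholera toxin and insulin, so every group had these factors. Calcium and ionophore were given together, so their effects cannot be told apart, and neither an ionophore vehicle nor a TGFb3 vehicle is named for the controls. The same 3 controls served both treatments. No time is given for the controls, so treatment and time in culture cannot be told apart. Replicates are numbered in the labels, but whether they were separate cultures is not said, so the p-values reflect only how far these samples varied, which may be technical. In bulk RNA, fewer cells of a type and less RNA per cell cannot be told apart.

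The proteasome is the barrel-shaped protease that degrades proteins tagged with ubiquitin. Its core stacks outer rings of PSMA proteins on inner rings of PSMB proteins, of which PSMB5, PSMB6 and PSMB7 carry the active sites. PSMC ATPases in the cap unfold a substrate and thread it into the core, while PSMD proteins bind ubiquitin, remove it and hold the cap together. In cells under interferon the immunoproteasome subunits PSMB9, PSMB10 and PSMB8 take the places of PSMB6, PSMB7 and PSMB5, and PSME1 with PSME2 forms the PA28 ring that opens the core, both of which change the peptides available to MHC class I molecules. Transcription of the constitutive genes is known to be raised together by NRF1 (NFE2L1), which acts at antioxidant response elements when proteasome activity is short.

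Promoter sequences are shown for 5 members, 4 of them immunoproteasome or PA28 genes, that were called higher in high calcium than under TGFb3 in each of the 4 scalings described below. The windows run from 250 bases before to 50 after a RefSeq transcript start (GRCh38.p14, 40 of 46 members had at least 1 window). An interferon-stimulated response element was searched on both strands as GAAA and GAAA parted by any 2 bases. Its most frequent form among the members was GAAAGCGAAA, in 5 of them, a form picked out after the sequences had been seen. Capitals mark these letters, or their reverse complement TTTCGCTTTC, with 60 bases before and 15 after them in the direction of the gene.
PSMB8, chr6:32844027-32844111, minus strand: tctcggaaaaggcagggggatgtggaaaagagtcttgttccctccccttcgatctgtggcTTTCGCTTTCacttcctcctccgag
PSMB10, chr16:67936847-67936931, minus strand: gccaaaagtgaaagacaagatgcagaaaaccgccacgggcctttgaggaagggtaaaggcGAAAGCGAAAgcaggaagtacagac
PSME1, chr14:24136139-24136223, plus strand: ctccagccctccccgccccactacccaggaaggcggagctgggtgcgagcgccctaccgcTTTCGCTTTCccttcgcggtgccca
PSME2, chr14:24146614-24146698, minus strand: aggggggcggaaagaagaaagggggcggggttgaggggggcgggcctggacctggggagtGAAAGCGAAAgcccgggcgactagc
PSMG4, chr6:3258854-3258938, plus strand: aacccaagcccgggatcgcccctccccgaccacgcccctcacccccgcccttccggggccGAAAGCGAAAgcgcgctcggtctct
The letters began between 33 bases before and 5 bases after the transcript start. They stood in 5 of 49 member windows (10.2%) and in 35 of all 35116 windows (0.0997%). The wider pattern with any 2 bases in the middle stood in 7 member windows (14.3%) and in 3.57% of all windows. PSMA4 and PSMB4 were the other members that held it.

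The antioxidant response element core was searched as TGACNNNGC, the motif named for NRF1 targets. It stood in 15 of 49 member windows (30.6%) and in 13.3% of all windows. A set of 4 is shown, 1 each from the outer ring, the inner ring, the cap and the assembly factors. All 4 fell in at least 1 comparison, but falls were common, with 41.3% of all members called lower in high calcium and 67.4% under TGFb3. Not shown are PSMB9 and PSME1, the 2 members with this core that were called higher in high calcium.
PSMA4, chr15:78540600-78540683, plus strand: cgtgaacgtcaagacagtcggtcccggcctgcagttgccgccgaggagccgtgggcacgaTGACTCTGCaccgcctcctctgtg
PSMB3, chr17:38752577-38752660, plus strand: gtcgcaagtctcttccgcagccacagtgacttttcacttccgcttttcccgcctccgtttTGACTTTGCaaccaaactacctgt
PSMD12, chr17:67366719-67366802, minus strand: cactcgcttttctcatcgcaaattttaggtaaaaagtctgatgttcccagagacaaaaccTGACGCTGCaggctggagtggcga
PSMG1, chr21:39183611-39183694, minus strand: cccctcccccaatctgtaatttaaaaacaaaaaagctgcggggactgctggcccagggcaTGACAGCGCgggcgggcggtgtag
The gamma-activated site TTCNNNGAA stood in 7 member windows (14.3% against 7.66% of all windows), and CCAAT in 19 (38.8% against 34.6%). A match describes the letters and is not a binding site.

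In the controls the core genes had the highest medians of the gene means, 333.5 TPM for PSMA and 221.7 TPM for PSMB. Single genes overlapped, with PSMD8 of the cap, at 249.5 TPM, above PSMA5 and PSMB6. On the length-normalised TPM scale the control means ran from 112.3 (PSMA5) to 595.2 (PSMA7) in the PSMA ring and from 112.5 (PSMB6) to 316.0 (PSMB4) in the PSMB ring. The immunoproteasome genes were far lower in the controls, at 4.04 ± 0.766 TPM for PSMB9, 6.64 ± 0.451 TPM for PSMB10 and 49.98 ± 1.71 TPM for PSMB8 (SD, n = 3). PSMC genes had control means between 84.7 (PSMC2) and 163 (PSMC3), and PSMD genes between 31.1 (PSMD9) and 249.5 (PSMD8). Among the assembly genes PSMG4 had the lowest control mean, 19.8 TPM, and PSMG1 the highest, 137.5 TPM. Summed over the 46 members, the share of the library was 7342 ± 202 TPM in untreated cells, 6461 ± 70.7 in high calcium and 6221 ± 256 under TGFb3.

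The share of mitochondrial RNA differed in high calcium. Genes of the mitochondrial genome took 21.7 to 23.3% of all TPM in the controls, 11.1 to 11.9% in high calcium and 22.2 to 23.3% under TGFb3. Over all tested genes the median log2 difference was 0.22 for high calcium against control, −0.06 for TGFb3 against control and 0.27 for high calcium against TGFb3. Calls were therefore also made under 3 other scalings: median ratio, quantile, and TPM without mitochondrial genes. Calls below are on the deposited scale unless another is named. The median ratio brought those medians to 0.01, −0.01 and 0.01. Differences below are of log2(TPM + 1), with the standard error (SE) of the limma fit. A gene was called at a Benjamini-Hochberg adjusted p under 0.05 over all tested genes.

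**Figure D1:**
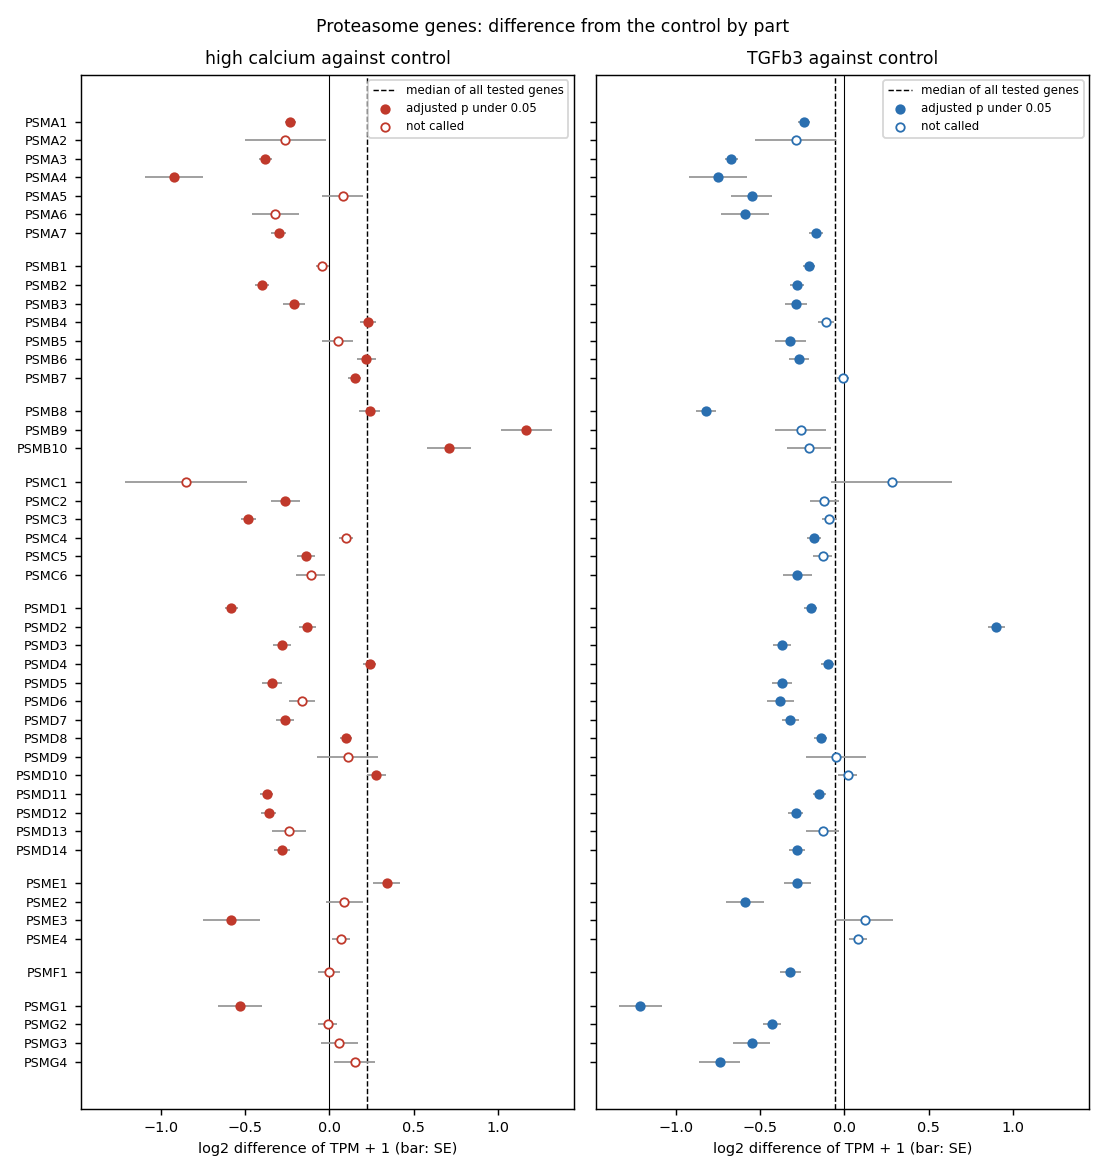
Log2 difference of TPM + 1 (x axis) for each of the 46 members (y axis, grouped by part), for high calcium (left) and TGFb3 (right) against the 3 controls; bars are the SE, filled points passed the limma threshold and the dashed line is the median of all tested genes. Most members lie left of the dashed line in both panels, and PSMB9 and PSMB10 on the left and PSMD2 on the right lie far to its right.

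Most constitutive proteasome genes ranked below the typical gene in high calcium, while PSMB9 and PSMB10 of the immunoproteasome rose. Of the 46 members, 19 were called lower (41.3%), where 17.0% of all tested genes were, and 10 were called higher (21.7%), where 46.1% of all tested genes were. Calls in either direction were made for 63% of the members and for 63.1% of all tested genes. The median member differed by −0.14, and 39 of 46 members lay below the median of all genes. The 19 falls were called under each of the 4 scalings, and of the 10 rises only those of PSMB9 and PSMB10 were. PSMA6, PSMB1, PSMC1, PSMC6, PSMD6, PSMD13, PSMF1 and PSMG2, which were not called on the deposited scale, were called lower under all 3 rescalings. The 3 high calcium samples lay above the 3 controls for 11 members (49.4% of all genes did) and below them for 20 (19.6% of all genes did).

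In the PSMA ring, which forms the gate of the core, 4 of 7 genes fell in high calcium, none rose, and the median difference was −0.30. PSMA4 stood at 523, 530.2 and 415 TPM in the 3 controls, 299.6, 229 and 247 TPM with high calcium and 357, 219.6 and 307 TPM with TGFb3. The high calcium samples all lay below the controls, with a difference of −0.92 (SE 0.17, limma adjusted p = 0.00096), the lowest value of any member. PSMA3 stood at 311, 314 and 301 TPM in the 3 controls, 232, 234 and 246 TPM with high calcium and 186, 198 and 196 TPM with TGFb3, and high calcium differed from control by −0.38 (SE 0.039, limma adjusted p = 1.8e-05). PSMA7, the most abundant member, went from 595 ± 13.6 TPM to 483 ± 16.2 TPM (SD, n = 3), and PSMA1 from 334 ± 9.15 TPM to 284 ± 5.46 TPM. Both of these falls were called. PSMA5 (0.08), PSMA6 (−0.32) and PSMA2 (−0.26) did not pass the threshold, though PSMA6 did under each rescaling and without control sample 3, high calcium sample 1 or TGFb3 sample 1 (limma adjusted p between 0.011 and 0.049).

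Among the 7 constitutive PSMB genes 2 fell in high calcium, 3 rose and 2 were not called, with a median of 0.05. PSMB2 stood at 139, 138 and 136 TPM in the 3 controls, 103, 101 and 108 TPM with high calcium and 115, 117 and 108 TPM with TGFb3. This structural subunit fell in high calcium by 0.40 on the log2 scale (SE 0.042, limma adjusted p = 1.6e-05), with no overlap of the samples. PSMB3, another structural subunit, fell from 222 ± 5.03 TPM to 191 ± 13.9 TPM, a call that was lost without the first high calcium sample (limma adjusted p = 0.062). The rises were those of PSMB4 (0.23) and of the active-site subunits PSMB6 (0.22) and PSMB7 (0.15), all near the 0.22 of the median gene. After median ratio scaling these were −0.01, −0.02 and −0.09 and none was called. PSMB5, the third active-site subunit, differed by 0.05 and PSMB1 by −0.04, neither of them called. PSMB1 was called lower under each rescaling, at −0.28 with the median ratio (limma adjusted p = 9.7e-05).

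The 3 immunoproteasome genes were all called higher in high calcium on the deposited scale. PSMB9 stood at 3.54, 3.66 and 4.93 TPM in the 3 controls, 11.6, 11.2 and 8.37 TPM with high calcium and 3.04, 2.89 and 3.69 TPM with TGFb3. All high calcium samples lay above all controls, and PSMB9 (ENSG00000240065.7, chr6:32844136-32859585 in hg38) rose by 1.17 (SE 0.15, limma adjusted p = 8.2e-05), the largest rise of any member. PSMB10 stood at 6.33, 6.45 and 7.16 TPM in the 3 controls, 12.2, 11.6 and 10.8 TPM with high calcium and 7.20, 4.80 and 4.99 TPM with TGFb3. Its samples did not overlap either, and the rise of PSMB10 (ENSG00000205220.11, chr16:67934502-67937087) was 0.71 (SE 0.13, limma adjusted p = 0.00089). After median ratio scaling PSMB9 still differed by 0.96 and PSMB10 by 0.50, both called.

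PSMB8, the most abundant of the 3, had the smallest difference in high calcium. PSMB8 stood at 48.01, 51.1 and 50.8 TPM in the 3 controls, 61.7, 62.1 and 53.7 TPM with high calcium and 28.4, 28.1 and 27.01 TPM with TGFb3. The rise in high calcium was 0.24 (SE 0.061, limma adjusted p = 0.007), and after median ratio scaling the difference was 0.00 and not called. PSMB8 (ENSG00000204264.8, chr6:32840717-32844703) and PSMB9 lie side by side on opposite strands and overlap, PSMB9 also overlaps TAP1 on the other strand and PSMB8-AS1 on its own, and whether the counting used strand is not given in the sources used here. Reads from the overlapping stretches therefore cannot be told apart. TAP1, a peptide transporter gene, itself rose from 21.7 ± 1.74 to 38.2 ± 1.78 TPM.

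Set against the subunit it replaces, PSMB9 was 3.58 ± 0.53% of the TPM of PSMB6 in the controls, 7.95 ± 1.4% in high calcium and 3.46 ± 0.52% under TGFb3 (SD, n = 3). For PSMB10 as a percentage of PSMB7 the values were 2.63 ± 0.27, 4.11 ± 0.19 and 2.25 ± 0.54. PSMB8 stood at 40.9 ± 1.7% of PSMB5 in the controls, 46.8 ± 0.67% in high calcium and 28.7 ± 3.6% under TGFb3. A TPM ratio within a sample is not altered by the median ratio or by leaving out mitochondrial genes, which multiply a sample by 1 factor, but quantile normalisation can alter it. In each of the 3 pairs all high calcium samples lay above all controls. The ratios of PSMB9 and PSMB10 under TGFb3 overlapped those of the controls, whereas those of PSMB8 lay below.

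**Figure D2:**
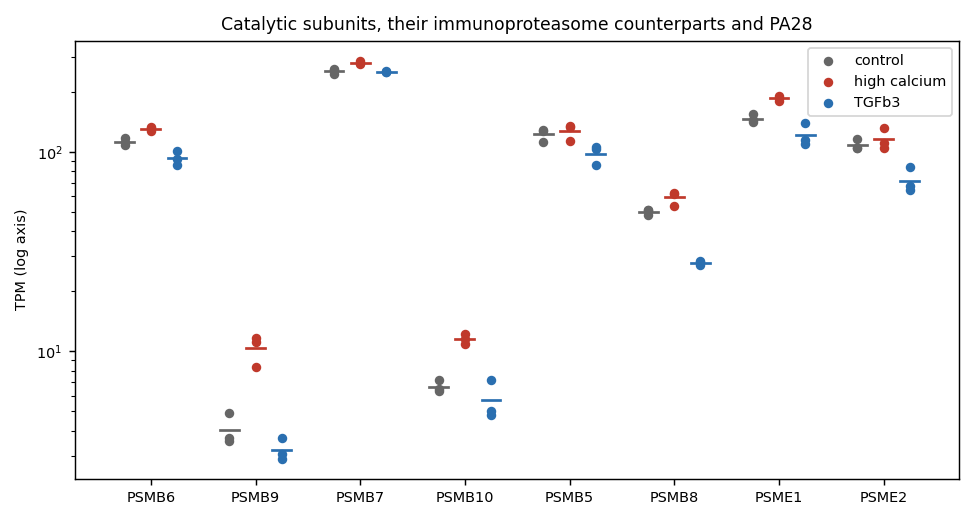
TPM on a log axis for the 3 active-site subunits, each followed by its immunoproteasome counterpart, and for PSME1 and PSME2, with 1 point per sample and a line at the mean of 3. PSMB9 and PSMB10 are highest in the 3 high calcium samples, and PSMB8, PSME1 and PSME2 are lowest in the 3 TGFb3 samples.

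Immune cells carry immunoproteasomes, so markers of them were read in the same samples. Among 8 such genes the leukocyte gene PTPRC, the T cell gene CD3E and HLA-DRA were at 0 TPM in all 9 samples, and CD14, CSF1R, CD68 and LCP1 averaged 1 TPM or more over the samples. These moved differently: CD14 had group means of 19.98 TPM in untreated cells, 35.99 in high calcium and 2.55 under TGFb3, CD68 of 2.04, 24.8 and 11.03, CSF1R of 0.702, 4.07 and 8.05, and LCP1, most of the sum, of 160.0, 172 and 213. The 8 genes summed to between 178.8 and 187.2 TPM in untreated cells, 230.2 and 248.4 in high calcium and 224.0 and 246.1 under TGFb3. All 11 basal mammary markers were detected, with sums of 6138 to 6770 TPM in untreated cells, 8949 to 9301 in high calcium and 12400 to 14390 under TGFb3. Of 7 fibroblast markers COL1A2 was at 0 TPM throughout, and the sums were 2.60 to 3.52, 9.99 to 12.6 and 28.5 to 32.04 TPM in the same order. Of 6 endothelial markers CDH5 and CLDN5 were at 0 TPM, and the sums were 4.54 to 5.50, 11.7 to 12.6 and 1.67 to 2.51 TPM. The part of these sums in the proteasome results was not tested.

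The ATPases of the cap included no rise in high calcium, where 3 of 6 PSMC genes fell and none rose, with a median of −0.20. PSMC3 stood at 165, 168 and 157 TPM in the 3 controls, 118, 116 and 115 TPM with high calcium and 162, 149 and 149.5 TPM with TGFb3. The difference was −0.48 (SE 0.044, limma adjusted p = 6.8e-06), and all high calcium samples lay below the controls. PSMC2 differed by −0.26, a call lost without control sample 1 or 2 or high calcium sample 1 or 2 (limma adjusted p between 0.051 and 0.08). PSMC5 differed by −0.14, a call lost without any control, high calcium sample 1 or 2 or TGFb3 sample 2 (limma adjusted p between 0.062 and 0.18). PSMC4 (0.10) and PSMC6 (−0.11) were not called, but passed without high calcium sample 3 or TGFb3 sample 1 or 3 (PSMC4, limma adjusted p between 0.045 and 0.049) and without high calcium sample 1 (PSMC6, 0.033). PSMC4 turned to a called fall with the median ratio (−0.14, limma adjusted p = 0.012) and without mitochondrial genes (−0.10, 0.048). PSMC6 was called lower under each rescaling (0.0087 to 0.033).

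PSMC1 had a wide spread between replicates. PSMC1 stood at 197, 73.5 and 126 TPM in the 3 controls, 53.03, 49.8 and 116 TPM with high calcium and 153, 139 and 155 TPM with TGFb3. The coefficient of variation was 46.8% in the controls, 51.0% in high calcium and 5.91% under TGFb3. High calcium against control gave −0.85 (SE 0.36, limma adjusted p = 0.064), which was called without control sample 2 (0.011) or high calcium sample 3 (0.0079) and under each rescaling (0.027 to 0.037). Against TGFb3 the high calcium samples all lay lower, at −1.13 (SE 0.36, limma adjusted p = 0.019), and this call was lost without high calcium sample 1 (0.066) or sample 2 (0.07).

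Among the 14 PSMD genes 8 fell in high calcium, 3 rose and 3 were not called, with a median of −0.25. PSMD1 stood at 171, 175 and 174 TPM in the 3 controls, 116, 114 and 119 TPM with high calcium and 152, 156 and 146 TPM with TGFb3. PSMD1 (ENSG00000173692.12, chr2:231056864-231172827), a large scaffold subunit of the cap, fell by 0.58 on the log2 scale (SE 0.037, limma adjusted p = 6.1e-07), the call with the lowest adjusted p of any member in this comparison. PSMD11 fell from 70.9 ± 1.93 TPM to 54.8 ± 0.683 TPM and PSMD12 from 112 ± 3.82 TPM to 87.2 ± 3.12 TPM. PSMD14, the deubiquitinase that strips ubiquitin from a substrate, fell from 198 ± 11.8 TPM to 162 ± 4.66 TPM. Further falls were those of PSMD5 (−0.34), PSMD3 (−0.28), PSMD7 (−0.26) and PSMD2 (−0.13), and the last was lost when any control, any high calcium sample or TGFb3 sample 3 was left out (limma adjusted p between 0.051 and 0.12). PSMD6, PSMD9 and PSMD13 were not called, though PSMD6 passed without control sample 3 (limma adjusted p = 0.027) and PSMD13 without high calcium sample 3 (0.043) or TGFb3 sample 1 (0.034). Both were called lower under each rescaling.

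The 3 PSMD rises in high calcium were small. PSMD4 stood at 156, 163 and 151 TPM in the 3 controls, 186, 186 and 181 TPM with high calcium and 151, 142 and 143 TPM with TGFb3. PSMD4, a ubiquitin receptor, differed by 0.24, PSMD10, a chaperone of cap assembly, by 0.28 and PSMD8 by 0.10. After median ratio scaling they stood at 0.00, 0.04 and −0.14, with no rise called. PSMD4 stayed called higher after quantile normalisation (0.10, limma adjusted p = 0.031). PSMD8 turned to a called fall with the median ratio (0.015) and without mitochondrial genes (−0.10, 0.033). The PSMD8 call was also lost without control sample 1 or 3, any high calcium sample or TGFb3 sample 3 (limma adjusted p between 0.053 and 0.12). PSMD5, PSMD9 and PSMD10 are chaperones that leave the cap once it is built, and their differences of −0.34, 0.11 (not called) and 0.28 did not share a direction.

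The activators split in high calcium. PSME1 stood at 141, 155 and 145 TPM in the 3 controls, 190.5, 180.5 and 186 TPM with high calcium and 140.2, 114 and 109.9 TPM with TGFb3. PSME1 was above the controls in every high calcium sample, at 0.34 (SE 0.081, limma adjusted p = 0.0044), though the median ratio left 0.10 and no call. PSME2 stood at 116, 104 and 104 TPM in the 3 controls, 131, 104 and 111 TPM with high calcium and 83.95, 67.2 and 64 TPM with TGFb3. PSME2, its partner in PA28, overlapped the controls and differed by 0.09. PSME3 stood at 178, 167 and 268 TPM in the 3 controls, 125, 146 and 131 TPM with high calcium and 237, 178 and 242 TPM with TGFb3. PSME3 encodes the nuclear activator PA28 gamma and fell by 0.58 on the log2 scale (SE 0.17, limma adjusted p = 0.014), a fall also called after each rescaling. PSME4, the activator PA200, differed by 0.07 and PSMF1, an inhibitor of the core in vitro, by 0.00, neither called. With the median ratio both were called lower, PSME4 at −0.16 and PSMF1 at −0.24, and PSMF1 also under the other rescalings.

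PSMG proteins form chaperone pairs on which the PSMA ring is built and are not part of the finished particle. PSMG1 stood at 133, 151 and 129 TPM in the 3 controls, 111, 96.1 and 79.6 TPM with high calcium and 69.4, 57.95 and 50.8 TPM with TGFb3. PSMG1 (ENSG00000183527.11, chr21:39174769-39183851) fell in high calcium by 0.53 on the log2 scale (SE 0.13, limma adjusted p = 0.0055), with no overlap. Its pair partner PSMG2 differed by −0.01, PSMG3 by 0.06 and PSMG4 by 0.15, none of them called, though PSMG4 passed without high calcium sample 2 (limma adjusted p = 0.014). PSMG2 was called lower under each rescaling, at −0.25 with the median ratio (limma adjusted p = 0.0033).

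**Figure D3:**
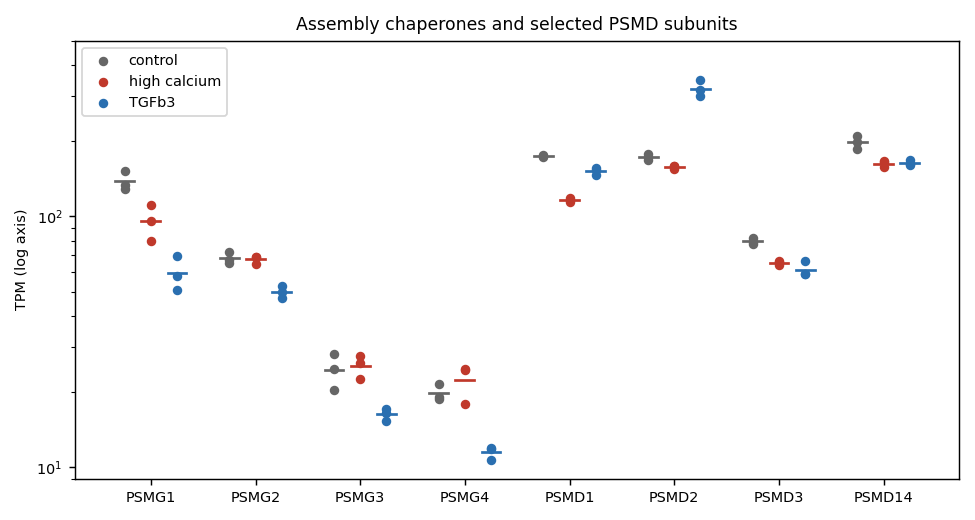
TPM on a log axis for the 4 assembly genes and 4 PSMD genes, with 1 point per sample and a line at the mean of 3. The 3 TGFb3 samples lie lowest for each PSMG gene, those of PSMD2 lie between 300.2 and 348 TPM, above all others, and PSMD1 is lowest in high calcium.

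Under TGFb3 most proteasome genes were called lower, 1 was called higher and 14 were not called. Of the 46 members 31 were called lower (67.4%), where 33.1% of all tested genes were, and 1 was called higher (2.17%), where 26.5% of all tested genes were. Either call was made for 69.6% of the members and for 59.6% of all tested genes. The median member differed by −0.28 beside −0.06 for all genes, and 39 of 46 lay below the latter. Of the 31 falls, 27 were called under all 4 scalings, the exceptions being PSMA7, PSMC6, PSMD4 and PSMD8. TGFb3 samples lay below all controls for 33 members (35.4% of all genes did) and above them for 1 (28.4% of all genes did).

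The called rise was PSMD2. PSMD2 stood at 168, 172 and 177 TPM in the 3 controls, 155, 158 and 158 TPM with high calcium and 348, 300.2 and 319 TPM with TGFb3. All TGFb3 samples lay above all others, and PSMD2 (ENSG00000175166.16, chr3:184298709-184309054), a large scaffold of the cap that docks ubiquitin shuttles, rose by 0.90 (SE 0.051, limma adjusted p = 2.7e-07). Each rescaling kept it, and the median ratio gave 0.95. PSMD1, the other large scaffold, moved the other way, from 174 to 151 TPM in the group means, a difference of −0.20 (SE 0.037, limma adjusted p = 0.0012). No other gene overlaps PSMD2 in GENCODE release 29. Without control sample 3 a second member, PSME4, was called higher (limma adjusted p = 0.037).

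The assembly chaperones were the part with the lowest median under TGFb3, −0.64, and all 4 fell. PSMG1, whose values are given above, fell by 1.21 on the log2 scale (SE 0.13, limma adjusted p = 2.6e-05), the largest fall of any member. PSMG2 stood at 65.1, 72.1 and 66.9 TPM in the 3 controls, 64.7, 68.9 and 68.8 TPM with high calcium and 49.97, 47.4 and 52.8 TPM with TGFb3, and TGFb3 differed by −0.43 (SE 0.056, limma adjusted p = 8.2e-05). PSMG3 stood at 28.2, 24.7 and 20.3 TPM in the 3 controls, 25.99, 22.4 and 27.7 TPM with high calcium and 16.4, 17.03 and 15.3 TPM with TGFb3, and TGFb3 differed by −0.55 (SE 0.11, limma adjusted p = 0.0021). PSMG4 stood at 21.6, 18.8 and 19.1 TPM in the 3 controls, 24.3, 17.9 and 24.7 TPM with high calcium and 11.8, 10.7 and 11.9 TPM with TGFb3, and TGFb3 differed by −0.74 (SE 0.12, limma adjusted p = 0.00035). For each PSMG gene the TGFb3 samples lay below every control and every high calcium sample, and each fall was called under all 4 scalings. The summed TPM of the 4 genes was 249.7 ± 15.9 in the controls, 210.6 ± 13.3 in high calcium and 137.2 ± 9.11 under TGFb3.

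In the PSMA ring 6 of 7 genes fell under TGFb3, with a median of −0.55. The difference was −0.75 (SE 0.17, limma adjusted p = 0.0035) for PSMA4, −0.67 (SE 0.039, limma adjusted p = 3.2e-07) for PSMA3 and −0.59 (SE 0.14, limma adjusted p = 0.0046) for PSMA6. PSMA6 stood at 368, 399 and 322 TPM in the 3 controls, 355, 262 and 262 TPM with high calcium and 200.4, 260.3 and 265 TPM with TGFb3. PSMA5 stood at 102, 123 and 112 TPM in the 3 controls, 124, 102 and 132 TPM with high calcium and 89.9, 71.9 and 67.5 TPM with TGFb3, and TGFb3 differed by −0.55 (SE 0.12, limma adjusted p = 0.0029). PSMA7 differed by −0.17 and PSMA1 by −0.24, and PSMA2, at −0.29, was not called except without control sample 3. The ring summed to 2369 ± 184 TPM in the controls, 1811 ± 79.6 in high calcium and 1752 ± 94.9 under TGFb3.

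Among the constitutive PSMB genes 5 of 7 fell under TGFb3, with a median of −0.27. The active-site subunits PSMB5 (−0.32) and PSMB6 (−0.27) and the structural PSMB3 (−0.29), PSMB2 (−0.28) and PSMB1 (−0.21) were called. PSMB6 stood at 108, 112 and 117 TPM in the 3 controls, 127, 133 and 132 TPM with high calcium and 101, 86.3 and 91.6 TPM with TGFb3. PSMB6 was lowest in the TGFb3 samples and highest in the high calcium samples, with no overlap among the 3 groups. PSMB5 stood at 112, 127 and 128 TPM in the 3 controls, 133, 134 and 113 TPM with high calcium and 105, 85.6 and 103 TPM with TGFb3. PSMB7 (−0.01) and PSMB4 (−0.11) were not called, though PSMB4 passed without control sample 1.

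Of the immunoproteasome genes PSMB8 fell under TGFb3 by 0.82 on the log2 scale (SE 0.061, limma adjusted p = 1.6e-06), to a level of 27.8 TPM. PSMB9 (−0.26) and PSMB10 (−0.21) were not called, and PSMB10 was called only when TGFb3 sample 1 was left out (limma adjusted p = 0.0094). Whether PSMB8 differed from the others in its response was not tested. PSME2 fell by 0.59 on the log2 scale (SE 0.11, limma adjusted p = 0.00092) and PSME1 by 0.28 on the log2 scale (SE 0.081, limma adjusted p = 0.013). The PSME1 call was lost without control sample 2 (limma adjusted p = 0.051) or TGFb3 sample 3 (0.05). PSME3 (0.12) and PSME4 (0.08) were not called, though PSME4 passed as a rise without control sample 3, with the median ratio and with quantile normalisation. PSMF1 went from 83.2 ± 4.88 TPM to 66.3 ± 4.53 TPM, a difference of −0.32 (SE 0.065, limma adjusted p = 0.0017).

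In the cap, 2 of 6 PSMC and 10 of 14 PSMD genes fell under TGFb3. PSMC6 fell by 0.28, a call lost without control sample 1 or 2 or TGFb3 sample 3 (limma adjusted p between 0.05 and 0.065), and PSMC4 fell by 0.18. PSMC3, PSMC2 and PSMC5 lay between −0.13 and −0.09 without a call (PSMC2 passed without control sample 3, PSMC3 without TGFb3 sample 1, and PSMC5 without high calcium sample 1 or 3 or TGFb3 sample 1), and PSMC1 was at 0.28 with the spread noted above. The lowest PSMD values were those of PSMD6 (−0.38), PSMD3 (−0.37) and PSMD5 (−0.37). PSMD3 stood at 77.6, 78.8 and 81.5 TPM in the 3 controls, 65.5, 66.2 and 64.05 TPM with high calcium and 66.5, 58.7 and 58.7 TPM with TGFb3. PSMD3 and PSMD5 were called lower in both treatments against the same controls. PSMD4 (−0.10) was called, but not without control sample 1 or 2, any high calcium sample or TGFb3 sample 2 or 3 (limma adjusted p between 0.064 and 0.17), and PSMD9, PSMD10 and PSMD13 were not called.

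**Figure D4:**
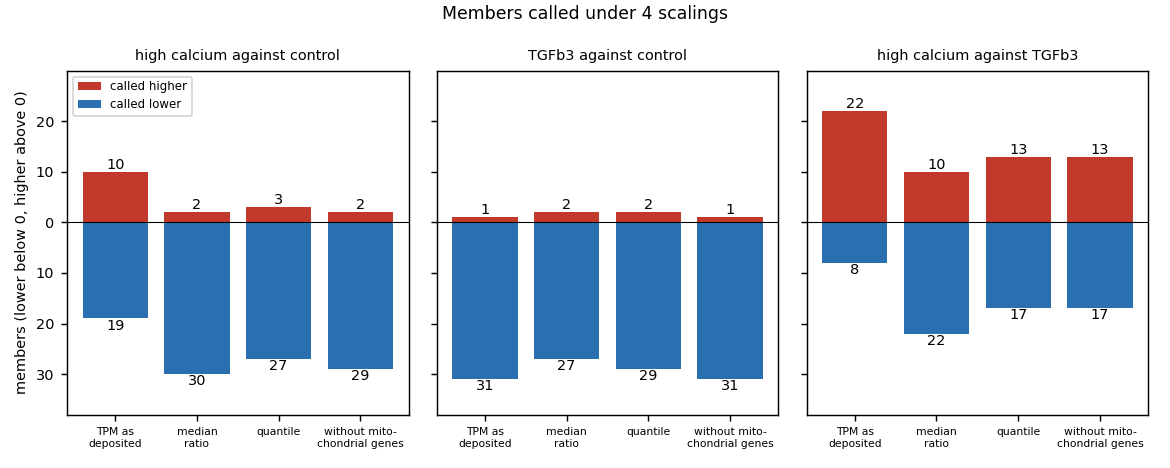
Number of the 46 members called higher (above 0) and lower (below 0) in each comparison under the deposited TPM and 3 rescalings. In high calcium against control the split is 10 higher and 19 lower as deposited and 2 and 30 with the median ratio, and in TGFb3 against control it is 1 and 31 as deposited and 2 and 27 with the median ratio.

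Directly compared, the immunoproteasome and PA28 genes and 3 of the 4 assembly genes were higher in high calcium than under TGFb3 at every scaling, and PSMD2, PSMD1 and PSME3 were lower. Of the 46 members 22 were called higher in high calcium (47.8%, beside 50.4% of all tested genes) and 8 lower (17.4%, beside 16.2%), so both shares were near those of all genes, as was the 65.2% called either way (66.5% of all genes). The balance turned with the scale, with 10 higher and 22 lower with the median ratio, and 13 and 17 with the quantile scaling and without mitochondrial genes. Without high calcium sample 1 the lower calls on the deposited scale were 5. High calcium samples lay above all TGFb3 samples for 23 members (53.1% of all genes did) and below for 10 (18.1%).

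Under all 4 scalings 10 members were higher in high calcium than under TGFb3: PSMB8, PSMB9, PSMB10, PSME1, PSME2, PSMG1, PSMG3, PSMG4, PSMA5 and PSMB6. The difference was 1.43 (SE 0.15, limma adjusted p = 1.8e-05) for PSMB9, 1.06 (SE 0.061, limma adjusted p = 2.5e-07) for PSMB8 and 0.93 (SE 0.13, limma adjusted p = 0.00014) for PSMB10. It was 0.89 (SE 0.12, limma adjusted p = 8.1e-05) for PSMG4, 0.68 (SE 0.11, limma adjusted p = 0.00032) for PSME2 and 0.64 (SE 0.12, limma adjusted p = 0.001) for PSMA5. The 8 that were lower under all 4 scalings were PSMD2 (−1.03), PSMC1 (−1.13), PSME3 (−0.70), PSMC3 (−0.40), PSMD1 (−0.38), PSMD11 (−0.22), PSMA7 (−0.13) and PSMB2 (−0.13). PSMG2, at 0.42, was not called with the median ratio alone. PSMB1 and PSMB7, called higher on the deposited scale, were called lower with the median ratio. PSMA1, PSMC2, PSMC5, PSMD5, PSMD12, PSMD13, PSMD14 and PSME4 were not called on the deposited scale and were lower under all 3 rescalings. The calls of PSMA7 and PSMB2 on the deposited scale were lost without high calcium sample 1 or TGFb3 sample 1, and also without high calcium sample 3 (PSMA7) or high calcium sample 2 or TGFb3 sample 2 (PSMB2), at limma adjusted p between 0.051 and 0.078.

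Members with the printed motifs can be read beside these calls, with no test. Among all tested genes 46.1% were higher and 17.0% lower in high calcium against control, and 26.5% and 33.1% under TGFb3. Between the treatments 50.4% of all tested genes were higher in high calcium and 16.2% lower. GAAAGCGAAA was picked from the windows of these same members, so its counts only describe them. Of the 7 with the interferon element as searched, 4 were higher, 1 lower and 2 not called in high calcium against control, 5 were lower and 2 not called under TGFb3, and 6 were higher and 1 not called in high calcium against TGFb3. They include PSMA4, the member with the lowest value in high calcium. Of the 5 with GAAAGCGAAA, the form picked afterwards, 3 were higher and 2 not called in high calcium against control, 4 were lower and 1 not called under TGFb3, and all 5 were higher in high calcium than under TGFb3. Of the 35 members whose windows lacked it, 12 were higher, 7 lower and 16 not called in that last comparison. PSMB9, with no interferon element of the wider pattern in its window, was higher by 1.43. For the 15 members with the antioxidant response element core, high calcium gave 2 higher and 8 lower calls, and TGFb3 gave 0 higher and 11 lower. The 25 members with a window and no such core gave 5 higher and 10 lower in high calcium, and 1 higher and 15 lower under TGFb3.

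NRF1, a membrane-bound factor that is cut free to enter the nucleus, has its own set of processing enzymes and partners. The list read here also held related factors, a repressor at the same element and a ligase that turns NRF1 over. Its counts therefore mix genes that act for and against NRF1. Of the 13 genes listed, 10 rose and 2 fell in high calcium, where 46.1% of all tested genes rose and 17.0% fell. After the median ratio 8 rose and 3 fell (30.4% and 29.9% of all genes). NFE2L1 itself, NRF1, went from 124.0 ± 2.90 TPM in untreated cells to 347 ± 8.39 in high calcium and 138 ± 3.12 under TGFb3 (SD, n = 3), differences of 1.48 (SE 0.036, limma adjusted p = 9.6e-10) and 0.15 (SE 0.036, limma adjusted p = 0.0045). SYVN1, the ligase that turns NRF1 over, rose by 1.63 (SE 0.092, limma adjusted p = 2.3e-07) in high calcium. The partner MAFF (1.07 in high calcium, 0.67 under TGFb3) and BACH1 (0.87 and 0.45), a repressor at the same element, rose in both. NFE2L2 (NRF2), the related oxidative stress factor, differed by 0.40 in high calcium and −0.73 under TGFb3, both called. DDI2, the protease that activates NRF1, fell in both, by 0.35 and 0.40 on the log2 scale. NGLY1, the glycanase of the same step, was at 0.17 in high calcium, which became −0.07 after the median ratio, and fell under TGFb3 by 0.44. Under TGFb3 5 of the 13 rose and 3 fell (26.5% and 33.1% of all genes).

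Of 12 genes for proteins that assemble or accompany the proteasome, 3 rose and 3 fell in high calcium (46.1% and 17.0% of all genes). After the median ratio 1 rose and 6 fell there (30.4% and 29.9%). Under TGFb3 2 rose and 5 fell (26.5% and 33.1%). UCHL5, a deubiquitinase of the cap, averaged 82.3 ± 2.34 TPM in untreated cells, 58.2 ± 5.90 in high calcium and 40.9 ± 0.56 under TGFb3, differences of −0.50 (SE 0.065, limma adjusted p = 8.8e-05) and −0.99 (SE 0.065, limma adjusted p = 6.7e-07). ADRM1, the receptor that anchors UCHL5, differed by −0.11 (not called, but lower under each rescaling) and −0.41 (called). POMP, the maturation factor of the core, fell by 0.10 in high calcium and rose by 0.16 under TGFb3. SEM1, a small lid subunit, was at 0.13 and 0.16, and its high calcium value became −0.11 after the median ratio. USP14, the other deubiquitinase of the cap, was not called in either treatment (−0.04 and 0.08), but was lower in high calcium under each rescaling and higher under TGFb3 with the median ratio and quantile scalings. KIAA0368, which encodes the proteasome adaptor ECPAS, rose by 0.45 in high calcium, and the nuclear import factor IPO9 fell by 0.39. PAAF1, a chaperone of the cap, and TXNL1, a thioredoxin bound to it, fell under TGFb3 by 0.42 and 0.59.

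Upstream of the proteasome, 11 of 16 genes for ubiquitin and its shuttles rose in high calcium and 1 fell (46.1% and 17.0% of all genes), and 7 rose and 4 fell after the median ratio (30.4% and 29.9%). The ubiquitin gene UBB fell by 0.36 in high calcium. SQSTM1, an autophagy receptor for ubiquitin, rose by 1.39 (SE 0.065, limma adjusted p = 6.7e-08), and the stress-inducible proteasome partner ZFAND2A by 1.31. Under TGFb3 6 rose and 6 fell (26.5% and 33.1% of all genes), among the latter SQSTM1 at −0.48. Of 15 genes of p97, the ATPase that extracts ubiquitinated proteins, 10 rose and 2 fell in high calcium (46.1% and 17.0% of all genes), 6 rose and 4 fell there after the median ratio (30.4% and 29.9%), and 8 rose and 2 fell under TGFb3 (26.5% and 33.1%). VCP, p97 itself, was at −0.01 in high calcium and 0.51 under TGFb3, and its adaptor NPLOC4 at 0.20 and 0.48. UFD1, another cofactor of the list, went otherwise, at −0.32 in high calcium (called lower) and 0.11 under TGFb3 (not called). In high calcium VCP was called lower under each rescaling (−0.25 with the median ratio) and NPLOC4 was called under none. DERL2, a factor of the endoplasmic reticulum exit, rose by 1.10 and 0.38.

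Downstream, 11 of 13 genes of MHC class I presentation rose in high calcium and 1 fell (46.1% and 17.0% of all genes), and 10 rose and 2 fell after the median ratio (30.4% and 29.9%). TAP1 rose by 0.79 (SE 0.072, limma adjusted p = 6.4e-06), TAPBP, which loads the peptide, by 1.03, the trimming enzyme ERAP1 by 1.36 and HLA-B by 0.99. TAP2, the other subunit of the transporter, was at −0.11 and not called, but lower under each rescaling. Under TGFb3 5 rose and 3 fell (26.5% and 33.1% of all genes): TAPBP was at 0.76, HLA-F at 0.96, TAP2 at −0.64 and NLRC5, the activator of these genes, at −0.57 (not called with the median ratio), while TAP1 (0.08) was not called.

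Interferon signalling genes rose in 10 of 13 cases in high calcium with none falling (46.1% and 17.0% of all genes), and in 6 with 1 falling after the median ratio (30.4% and 29.9%). IRF9 rose by 1.32, STAT2 by 1.18 and JAK1 by 0.97. IRF1 differed by 0.43, which became 0.21 with the median ratio and was called under no rescaling. Under TGFb3 6 rose and 2 fell (26.5% and 33.1% of all genes): IRF9 was again at 1.32 and JAK1 at 0.94, whereas the receptor gene IFNGR1 fell by 0.86, and IRF1 (−0.07) was not called. IFNGR1 was at 0.19 in high calcium and −0.05 after the median ratio.

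PSMA2 and PSMA6 each overlap another entry of the table, so reads could be split between the 2 entries in ways that were not tested. GENCODE release 29 places AC010132.3 over PSMA2 and AL121594.3 (named AL121594.1 in that release, matched by identifier) over PSMA6 on the same strand. Both are typed as protein-coding genes, and each of their transcripts carries a read-through tag. AC010132.3 stood at 0, 0 and 50.9 TPM in control samples 1 to 3, 0.229, 0 and 36.2 in high calcium and 0.882, 37.9 and 0 under TGFb3. PSMA2 stood at 176, 212 and 112 TPM in the 3 controls, 143, 154 and 109.7 TPM with high calcium and 161, 97.8 and 143 TPM with TGFb3. In each group PSMA2 was lowest in the sample where the overlapping entry was high. Summing both entries left PSMA2 between 136 and 212 TPM, and its differences of −0.30 in high calcium and −0.31 under TGFb3 were then called (limma adjusted p = 0.017 and 0.016), an alternative chosen after seeing the data. AL121594.3 ran from 0.889 to 45.5 TPM, and with it summed PSMA6 differed by −0.21 in high calcium (limma adjusted p = 0.056), −0.51 under TGFb3 and 0.31 between the treatments, the last now called (0.009).

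**Figure D5:**
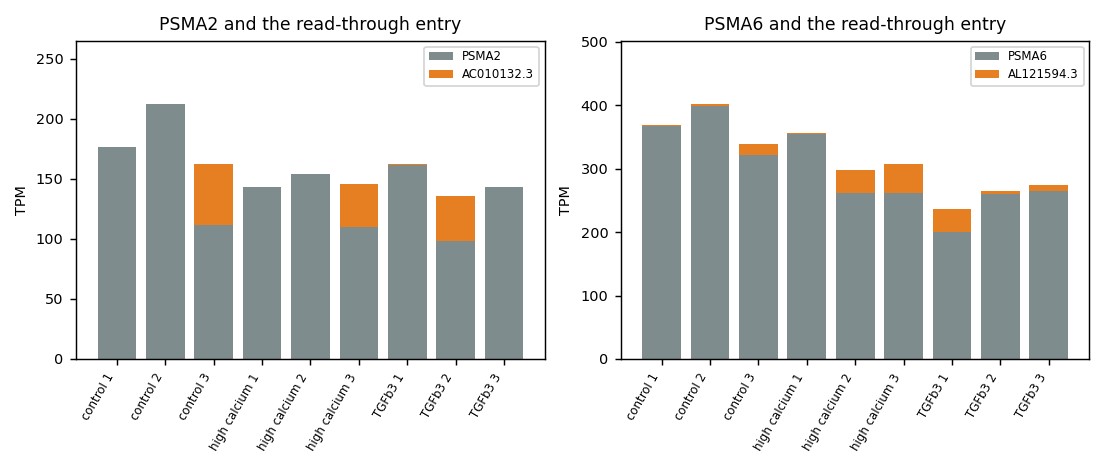
TPM of PSMA2 with the overlapping entry AC010132.3 (left) and of PSMA6 with AL121594.3 (right), stacked, in each of the 9 samples. AC010132.3 reaches 50.9, 36.2 and 37.9 TPM in 1 sample of each group, where the PSMA2 bar is lowest.

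Of the 48 named genes 29 overlap another annotated gene, most often on the opposite strand. Among those the results turn on, PSMG1, PSMA4 and PSMD2 overlap none. PSMG2 overlaps SPIRE1 and CEP76, PSMG4 overlaps TUBB2B and SLC22A23, PSME1 overlaps EMC9 and PSME2 overlaps RNF31. PSME3 overlaps BECN1 on the opposite strand, which averaged 76.5 TPM over the samples. PSMD5 overlaps PSMD5-AS1 on the opposite strand, at 13.8, 15.2 and 15.3 TPM in the 3 controls and 35.4, 43.2 and 33.2 in high calcium. The part of these overlaps in the values was not tested. Processed pseudogenes could take reads of the parent genes: 30 pseudogene symbols of this family were listed, 17 at 0 TPM in every sample and none above 1.7 TPM in any.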

How the data were processed

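RNA of MCF10A cells was measured in 9 samples, 3 per group, and all 9 sample columns were matched by label (0 left unmapped). Per the labels' protocols, RNA was taken up in Trizol and read as paired ends of 101 bases on an Illumina NovaSeq. The submitters' processing notes name HISAT2 and hg38. How the alignments became expression values, with which annotation and strand setting, is not given in the sources used here. TPM values were deposited by the authors for 58288 entries and total 1000000 in each sample. TPM keeps no depth, so the depth behind each value is unknown and no counting error is given.

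Entries that shared a symbol were summed (1932 entries under 253 symbols, 0 of them members), which left 56609 symbols. Symbols averaging 1 TPM or more (13968) were tested as log2(TPM + 1), a scale that understates changes of low genes. limma 3.58.1 in R 4.3.3 fitted all 9 samples and 3 groups with a variance trend (6 residual degrees of freedom). Two-sided p-values were Benjamini-Hochberg adjusted within a comparison and called under 0.05. The fit was also run on simulated data with independent noise, few changed genes and no shift in scale. That simulation cannot speak to the choice of scaling. Python 3.11.15, pandas 2.3.3 and matplotlib 3.10.9 served tables and figures.

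Members and gene lists were chosen with earlier results of these data known, so their counts are descriptions. Values are printed for every PSME, PSMF, PSMG and active-site gene, for up to 3 rises and 3 falls in each other part, for up to 4 called genes of each pathway list and for 13 genes whatever their values. Gene positions and overlaps come from GENCODE release 29, matched by identifier for all 48 names. Promoter windows come from RefSeq (GRCh38.p14). Alternatives were 3 rescalings, another pseudocount (0.1 TPM), other filters (none, or a mean of 5 TPM), only the compared groups, no variance trend, a replicate block, and each sample left out. Some genes of the lists are counted with their list but not reported here by name.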

Additional observations from a re-analysis of the deposited data

How the results depend on the processing

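The counts of members called depended most on the scaling. In high calcium against control the higher calls went from 10 to 2 with the median ratio, 3 with quantile normalisation and 2 without mitochondrial genes, and the lower calls from 19 to 30, 27 and 29. Under TGFb3 against control the higher calls went from 1 to 2, 2 and 1, the second being PSME4. Between the treatments the higher calls went from 22 to 10, 13 and 13 and the lower calls from 8 to 22, 17 and 17.

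Leaving out 1 sample at a time gave 9 to 11 higher and 16 to 21 lower calls in high calcium, 1 to 2 and 28 to 34 under TGFb3, and 21 to 23 and 5 to 9 between the treatments. The 2 higher calls under TGFb3 came without control sample 3, and the 5 lower calls between the treatments came without high calcium sample 1. The cause was not tested.

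Among differences called on the deposited scale or under the alternative, the sign changed only under the rescalings. In high calcium against control the median ratio gave −0.01 for PSMB4, −0.02 for PSMB6, −0.09 for PSMB7, 0.00 for PSMB8, −0.14 for PSMC4, 0.00 for PSMD4, −0.14 for PSMD8 and −0.16 for PSME4. With no call on either scale, PSMA5 turned to −0.15, PSMB5 to −0.19, PSMD9 to −0.12, PSME2 to −0.15, PSMG3 to −0.17 and PSMG4 to −0.08. Without mitochondrial genes PSMB7 was at −0.05, PSMC4 at −0.10 and PSMD8 at −0.10, and quantile normalisation gave −0.03 for PSMD8. Between the treatments the median ratio, quantile and mitochondria-free values were −0.28, −0.17 and −0.18 for PSMA1, −0.12, −0.02 and −0.03 for PSMB1, −0.13, −0.03 and −0.04 for PSMB7 and −0.26, −0.23 and −0.17 for PSMD5. The median ratio gave −0.21 for PSMB3, −0.01 for PSMC4, −0.02 for PSMD10, −0.19 for PSMD3, −0.07 for PSMD6, −0.22 for PSMD7 and −0.05 for PSMD8, quantile normalisation −0.14 for PSMD3, and the mitochondria-free scale −0.13 for PSMD7. The cause was not tested for single genes.

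Same-numbered samples did not deviate together (correlations from −0.07 to 0), so the replicate numbers were not taken as pairs. With the replicate block the higher and lower calls were 9 and 19 in high calcium, 1 and 30 under TGFb3 and 22 and 8 between the treatments. The block took the call from PSMC5, PSMD2 and PSMD8 in high calcium (limma adjusted p = 0.079, 0.068 and 0.067) and PSMD4 under TGFb3 (0.066), gave one to PSMC1 (0.041) and PSMD13 (0.042) in high calcium, and changed no other call. Depth is unknown, so limits of detection for PSMB9 and other low members cannot be given.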
